A study of Mus musculus with 32 samples.

Results

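Cortical tissue of mouse embryos that carry the Tg(Kat6b) transgene was compared between E12.5 and E15.5 (E, day of embryonic development), the span in which the dorsal telencephalon turns from a mostly dividing sheet into a layered cortex with neurons. All RNA-seq libraries labelled with this transgene were used, 4 from E12.5 and 4 from E15.5, which is 8 of the 32 libraries of the series. The embryos had a mixed FVBxBALB/c background, since the labels say that the transgene is not viable on an inbred one, and every library of this background was in sequencing batch 1. Nontransgenic wild-type embryos of the same cross (4 at E12.5, 4 at E15.5) and wild-type C57BL/6 embryos (3 at E12.5, 5 at E15.5, sequencing batch 2) were used as comparisons. Kat6b knockout C57BL/6 libraries of both ages also entered the C57BL/6 model and the setting with all 32 libraries, but are not compared here. The labels name the tissue dorsal telencephalon at E12.5 and cortex at E15.5, so age and dissection cannot be told apart. Neither a promoter nor a cell type that drives the transgene is given, and a read count for Kat6b adds the transgene and the endogenous gene. Litter and embryo number read "NA" in the labels of these libraries, so the p-values measure only the spread between samples, which may be technical. The C57BL/6 wild-type replicate 5 at E15.5 has a column header that names an E12.5 sample, and it was grouped by its label. The same holds for the knockout replicate 5 at E15.5.

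Kat6b is a histone acetyltransferase of the MYST family, which works in a complex with BRPF scaffold proteins and is known for its role in the development of the forebrain. In the early cortex, apical progenitors (neuroepithelial cells, then radial glia) divide at the ventricle, pass through a state of intermediate progenitor and give rise to neurons, deep-layer ones first and upper-layer ones later. Neurons then grow axons, switch on channels, receptors and the machinery of transmitter release, and late radial glia begin to express genes of the glial lineage.

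Total counts were 22123762 to 39694868 per library at E12.5 and 10987750 to 19043161 at E15.5, so the older group was read less deeply. The first principal component of the 8 libraries held 68.4% of the variance and separated the ages. E12.5 replicate 1 stood apart on the second component, with 8.92% of the variance, and E15.5 replicate 4 on the third. Levels are in CPM, the counts of a gene scaled to a common library size, and replicates are always given in the order 1 to 4. A gene is said to rise or fall where the quasi-likelihood test of edgeR over 15556 genes gave a Benjamini-Hochberg adjusted p below 0.05, and log2 fold changes are E15.5 over E12.5.

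The transgenic target was measured first. Kat6b, on chromosome 14 (chr14:21499216-21672478, GRCm38/mm10), was at 461, 559, 564 and 580.1 CPM at E12.5 and at 633, 584, 628 and 773 CPM at E15.5. Wild-type embryos of the same cross had 159, 193, 193 and 156 CPM at E12.5 and 224, 186, 149.9 and 163 CPM at E15.5, so every transgenic library lay above every wild-type one. Between the ages the transgenic mean was 541 ± 54.0 CPM at E12.5 and 654 ± 81.9 CPM at E15.5 (SD, n = 4 each), and the groups did not overlap. The difference (log2 fold change 0.27, SE 0.125, adjusted p 0.0849) did not pass the test. It passed when the model held only the 8 transgenic libraries (adjusted p 0.0471). The age effect on Kat6b in transgenic embryos minus that in wild type was 0.23 on the log2 scale, with a 95% interval of -0.15 to 0.61. Dupd1, the next gene on the chromosome (chr14:21676565-21714576), was at 2.27, 2.49, 2.64 and 3.43 CPM at E12.5 and at 4.04, 2.97, 4.90 and 4.27 CPM at E15.5, against at most 0.0453 CPM in any wild-type library. Its rise with age (log2 fold change 0.58, SE 0.285, adjusted p 0.114) did not pass in edgeR, but did with voom in limma (adjusted p 0.0281).

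**Figure D1:**
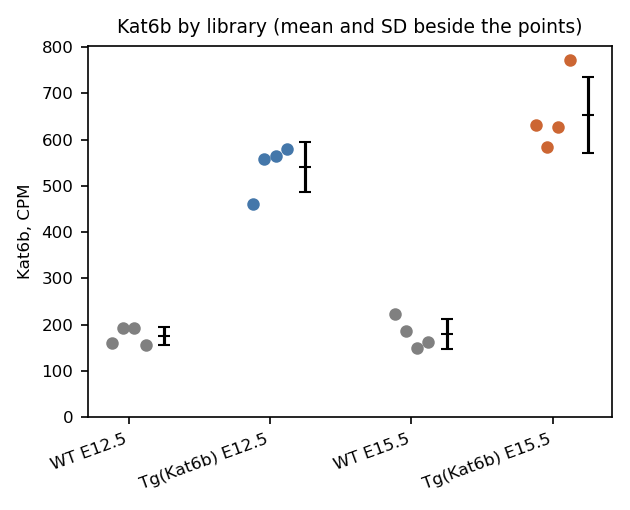
Kat6b level in CPM (y axis) in each library of the FVBxBALB/c background, by genotype and age (x axis), with the mean and SD of 4 libraries. Transgenic libraries lie between 461 and 773 CPM at both ages, above all wild-type libraries.

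Emx1, a marker of the dorsal telencephalon, was present in all 8 libraries, at 33.6, 71.4, 52.6 and 30.6 CPM at E12.5 and 62.9, 51.6, 55.9 and 74.9 CPM at E15.5, overlapping between the ages (adjusted p 0.275). Markers of tissue next to the cortex also differed between the ages, which bears on every gene named from here. The summed level of the meninges and mesenchyme list was 311, 627, 607 and 1459 CPM at E12.5 and 82 to 93 CPM at E15.5, and 18 of its 22 tested members fell, or 9 with voom in limma. Choroid plexus and cortical hem markers summed to 223, 666, 443 and 398 CPM and then to 101 to 127 CPM, with 20 of 22 lower. Diencephalon, midbrain and hindbrain markers summed to 468, 147, 299 and 403 CPM and then to 53 to 67 CPM. All 20 of those with enough counts to test fell, of 29 on the list, and members including Hoxa2, Hoxb2, Hoxb3 and Foxa2 were at 0 in every E15.5 library. Without E12.5 replicate 1, which had the most of these markers, 13 members of the list fell, and with voom 9. Erythroid and globin markers summed to 1490, 2179, 2493 and 4566 CPM and then to 208 to 470 CPM, with 10 of 16 lower. The globin gene Hbb-bs was the 1 member that rose, and its call was lost in 7 of 18 alternative settings. Across all genes tested, 22.5% fell. In bulk tissue, fewer cells of a type and less RNA per cell cannot be told apart, and the part that these tissues have in other changes was not tested.

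Members of these lists show how far the E12.5 libraries differed from each other. Lum, a collagen-binding proteoglycan of connective tissue, was at 23.6, 71.7, 52.8 and 90.3 CPM at E12.5 and 0.159, 0.594, 0.161 and 0.291 CPM at E15.5. Ttr, the transthyretin that the choroid plexus secretes, was at 9.70, 152, 62.1 and 30.1 CPM at E12.5 and 0.713, 1.13, 0.562 and 0.582 CPM at E15.5 (log2 fold change -6.32, SE 1.92, adjusted p 0.0143). The call on Ttr was lost without E12.5 replicate 2, the library with the most of it (adjusted p 0.0501). Hbb-y, an embryonic beta-like globin, fell from 1123, 1684, 1962 and 3325 CPM to 34.2, 46.7, 33.8 and 25.3 CPM, which is 57.5-fold lower. E12.5 replicate 4 was the highest library, as in the erythroid sum, most of which was Hbb-y in each E12.5 library. Nov was the 1 meninges member that rose (log2 fold change 1.86). Markers of the ventral telencephalon and of interneurons summed to 1321 to 2031 CPM at E12.5 and to 1035 to 2215 CPM at E15.5, lowest in E15.5 replicate 4. Of these markers 8 of 31 were higher and 5 lower, against 23.8% and 22.5% of all genes. Dlx2, which specifies interneurons, was at 138, 92.7, 139 and 129 CPM and 148, 184, 141 and 54.3 CPM, overlapping between the ages. Sst, the somatostatin peptide of an interneuron class, rose from 17.0, 11.1, 12.4 and 8.91 CPM to 51.7, 60.9, 49.9 and 34.5 CPM.

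**Figure D2:**
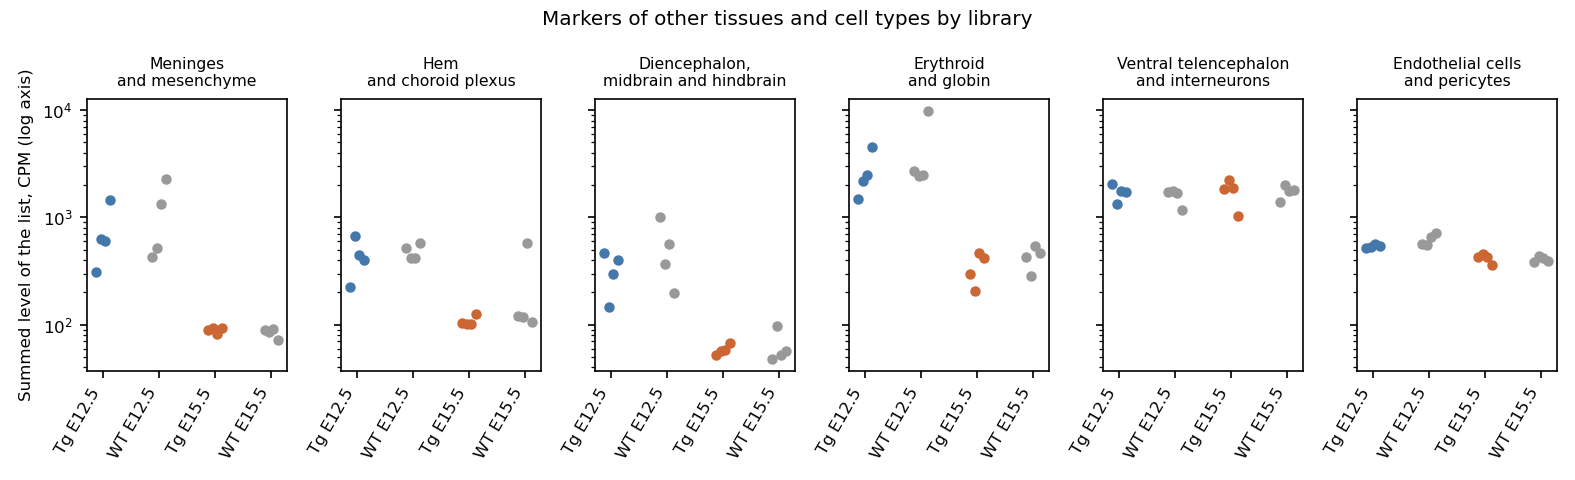
Summed CPM (y axis, log scale) of 6 marker lists for tissues and cells other than cortical neurons and progenitors, one panel each, in each library of the FVBxBALB/c background (transgenic in colour, wild type in grey). Meninges, hem and choroid plexus, diencephalon and erythroid sums are lower in all 4 transgenic E15.5 libraries than in all 4 transgenic E12.5 libraries, while the ventral sums overlap.

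Between E12.5 and E15.5, 7207 genes changed, 46.3% of those tested, of which 3705 rose (23.8%) and 3502 fell (22.5%). In 6699 genes (43.1%) the 4 libraries of one age lay wholly above those of the other. A stricter test, for changes of more than 1.5-fold, called 1296 genes higher (8.33%) and 1045 lower (6.72%). The median log2 fold change of all genes was -0.03, so the lists below are read against a centre near 0 and against these shares.

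**Figure D3:**
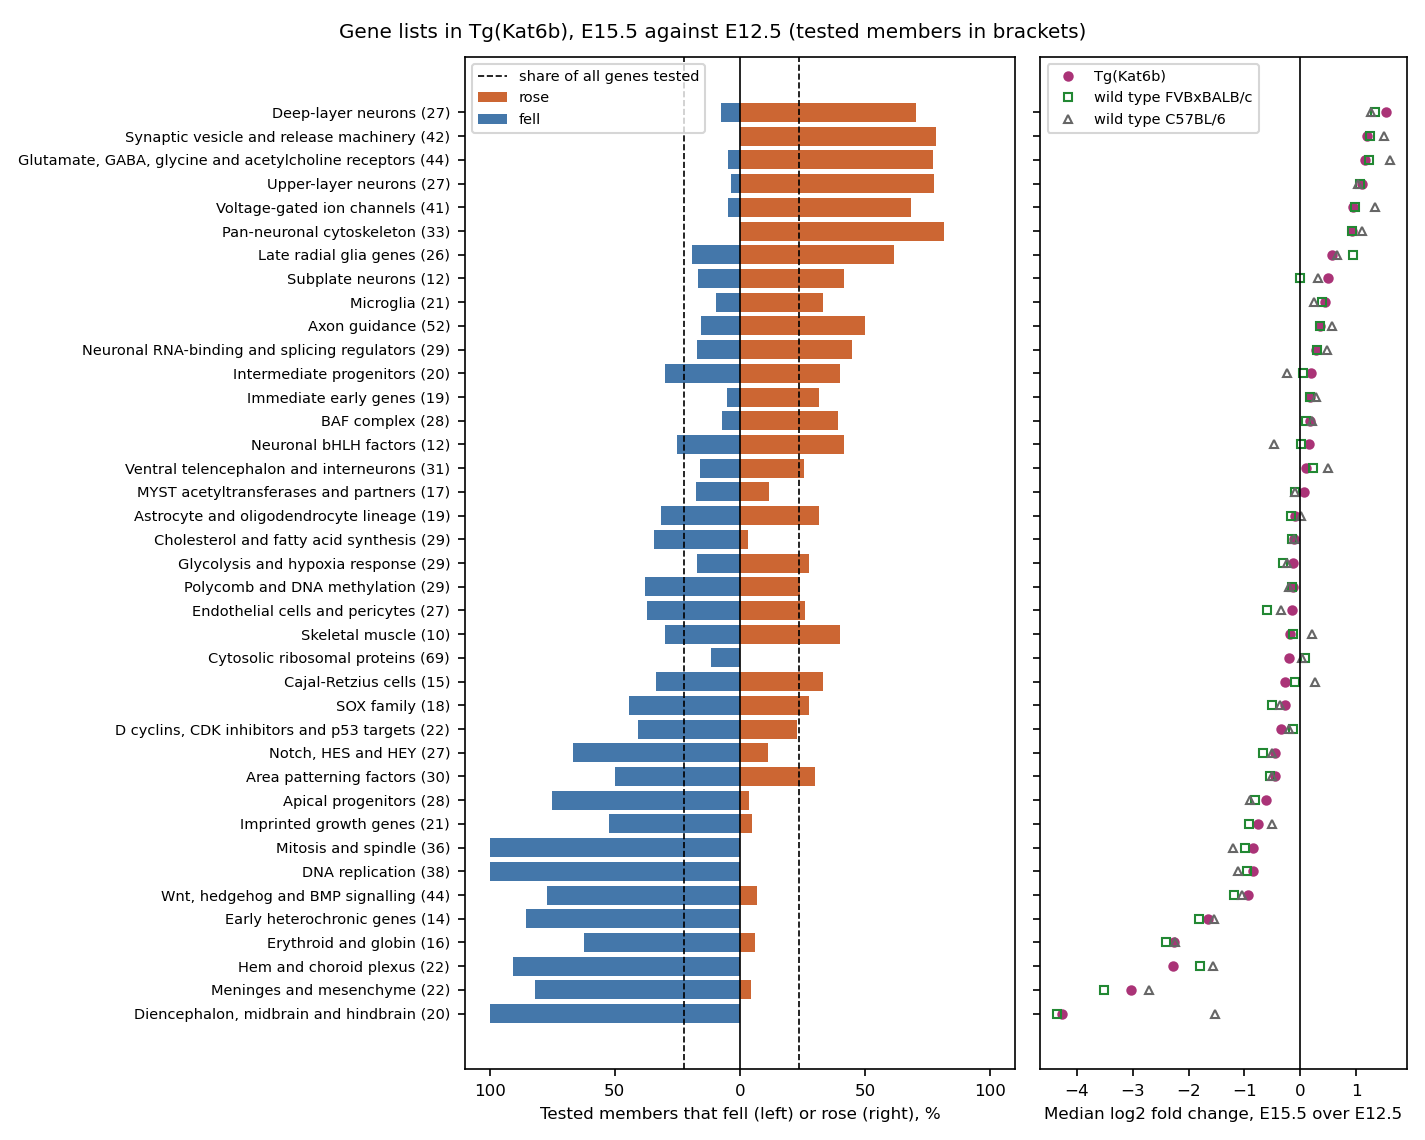
Left, percentage of the tested members of each of 39 gene lists that rose or fell between the ages in transgenic embryos, with dashed lines for the shares of all genes tested (23.8% and 22.5%). Right, the median log2 fold change of each list in transgenic embryos and in both wild-type backgrounds, where the replication and mitosis lists have all their tested members lower.

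Genes of DNA replication and of mitosis fell together. All 38 DNA replication genes tested and all 36 genes of mitosis and the spindle fell, against 22.5% of all genes, with a median log2 fold change of -0.85 in each list. Of these, 22 of the replication genes and 23 of the mitosis genes also passed the test for more than 1.5-fold, against 6.72% of all genes. The summed replication level went from 3998 to 4919 CPM at E12.5 to 2421 to 2667 CPM at E15.5, and the mitosis level from 7181 to 7811 CPM to 3981 to 4465 CPM. The regulatory sequences of 6 members are shown here because they carry short motifs that cell cycle promoters are known for. GGCGGGA, with TCCCGCC as its reverse complement, is a binding sequence of E2F factors. CCAAT, which reads ATTGG on the other strand, is bound by NF-Y. TTTGAA, which reads TTCAAA on the other strand, is the core of the cell cycle homology region. Each run is the 250 bases before and the first 30 bases from the RefSeq start of the gene, 5′ to 3′ on the gene's strand, from GRCm38.p6, with motif matches on either strand in capitals. In Bub1, Ccnb1, Ect2, Uhrf1 and Rrm2, the bases from that start were found at or near the 5′ end of an annotated transcript, of whichever gene. They were not in Hmmr, nor in Rtn1 and Cplx1, which are printed further on. Bub1 (chr2:127831830-127832109, minus strand), Ccnb1 (chr13:100786457-100786736, minus), Ect2 (chr3:27153825-27154104, minus) and Hmmr (chr11:40733408-40733687, minus) belong to mitosis. Uhrf1 (chr17:56303087-56303366, plus) and Rrm2 (chr12:24708004-24708283, plus) belong to replication.
Bub1: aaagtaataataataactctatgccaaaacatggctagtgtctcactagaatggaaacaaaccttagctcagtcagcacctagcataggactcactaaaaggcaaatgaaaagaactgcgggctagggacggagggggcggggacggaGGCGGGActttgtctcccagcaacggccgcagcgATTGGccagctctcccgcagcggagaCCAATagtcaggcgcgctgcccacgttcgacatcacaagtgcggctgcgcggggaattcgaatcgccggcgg
Ccnb1: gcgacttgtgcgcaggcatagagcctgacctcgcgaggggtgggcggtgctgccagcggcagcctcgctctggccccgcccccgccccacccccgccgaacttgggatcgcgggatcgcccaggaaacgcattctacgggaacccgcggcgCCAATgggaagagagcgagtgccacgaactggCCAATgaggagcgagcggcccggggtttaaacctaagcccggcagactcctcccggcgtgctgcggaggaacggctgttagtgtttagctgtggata
Ect2: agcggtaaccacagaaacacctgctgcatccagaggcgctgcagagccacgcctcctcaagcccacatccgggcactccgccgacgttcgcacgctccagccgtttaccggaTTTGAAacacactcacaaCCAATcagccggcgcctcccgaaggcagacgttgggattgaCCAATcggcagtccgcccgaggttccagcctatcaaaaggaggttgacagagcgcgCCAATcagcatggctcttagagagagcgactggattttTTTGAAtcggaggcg
Hmmr: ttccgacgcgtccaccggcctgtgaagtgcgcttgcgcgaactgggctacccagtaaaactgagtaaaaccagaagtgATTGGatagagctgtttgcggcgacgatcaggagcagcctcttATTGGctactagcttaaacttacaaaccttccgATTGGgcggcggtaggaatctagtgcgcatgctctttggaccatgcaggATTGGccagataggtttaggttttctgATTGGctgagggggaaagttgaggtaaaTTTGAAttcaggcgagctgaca
Uhrf1: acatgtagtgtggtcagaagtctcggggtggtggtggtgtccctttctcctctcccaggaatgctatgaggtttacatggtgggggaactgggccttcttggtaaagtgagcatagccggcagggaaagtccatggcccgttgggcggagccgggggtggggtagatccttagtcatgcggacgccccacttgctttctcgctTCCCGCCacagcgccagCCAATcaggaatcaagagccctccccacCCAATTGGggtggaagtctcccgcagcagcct
Rrm2: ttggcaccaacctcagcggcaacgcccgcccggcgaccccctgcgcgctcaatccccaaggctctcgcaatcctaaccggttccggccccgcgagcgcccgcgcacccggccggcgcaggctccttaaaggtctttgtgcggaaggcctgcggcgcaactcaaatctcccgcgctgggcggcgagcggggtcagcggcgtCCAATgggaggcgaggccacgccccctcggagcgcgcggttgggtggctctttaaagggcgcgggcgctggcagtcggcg

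Counted over the RefSeq windows of 300 bases (250 before, 50 after the start), TTTGAA on either strand was in 25 of 32 mitosis windows (78.1%) and in 11.9% of all 15064 windows of tested genes. In 75% of the mitosis windows and 3.03% of all windows, the nearest match lay within 50 bases of the start. Replication windows held TTTGAA in 11.1%. CCAAT was in 78.1% of mitosis windows, 58.3% of replication windows and 37.5% of all windows. GGCGGGA was in 31.2%, 36.1% and 19.9% in the same order. The genes that fell held TTTGAA in 15.2% of windows and those that rose in 10.2%. None of the motifs contains another, although their matches can overlap where they abut, as in Uhrf1, and a match describes letters and not a bound site.

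Bub1, a kinase of the spindle checkpoint, has no TTTGAA and 2 CCAAT matches in the bases printed above. It was at 163, 192, 172 and 174 CPM at E12.5 and 75.8, 81.9, 77.3 and 83.4 CPM at E15.5 (log2 fold change -1.14, SE 0.0749, adjusted p 1.43e-08). Ccnb1, the cyclin of mitotic entry, was at 121, 142, 140.3 and 132 CPM and then 72.8, 72.2, 70.3 and 62.1 CPM (log2 fold change -0.94, SE 0.0861, adjusted p 3.19e-07). Ect2, which drives cytokinesis and has a TTTGAA just past its start, was at 187, 218, 211 and 199 CPM and then 100.02, 111, 104 and 105 CPM. In each of these 3 genes the highest E15.5 library was below the lowest E12.5 library. Hmmr, a spindle protein with 5 CCAAT matches, fell from 120.4, 121, 112 and 121 CPM to 69.5, 63.7, 51.8 and 64.8 CPM. Uhrf1, which brings DNA methylation to newly copied strands, fell from 217, 241, 243 and 238 CPM to 126, 121, 111 and 105 CPM (log2 fold change -1.02, SE 0.0873, adjusted p 1.62e-07). Rrm2, a subunit of the enzyme that makes deoxynucleotides, fell from 222, 273, 293 and 286 CPM to 148, 141, 122 and 125 CPM (log2 fold change -1.0021, SE 0.0991, adjusted p 7.19e-07). The ages did not overlap in any of the 6 genes, which were picked by their values. Across all genes, 21.0% had every E15.5 library below every E12.5 library. Mcm4, a helicase subunit, fell from 211, 241, 225 and 216 CPM to 118, 119.6, 111 and 116 CPM, and the kinetochore gene Nuf2 had a log2 fold change of -1.03. The proliferation marker Mki67 fell by less, with a log2 fold change of -0.68. Of 22 D-type cyclins, inhibitors of cyclin-dependent kinases and p53 targets, 9 fell and 5 rose. Ccnd1, the cyclin of the G1 phase, was at 435, 445, 563 and 569 CPM at E12.5 and 136, 145, 115 and 104 CPM at E15.5 (log2 fold change -2.01, SE 0.128, adjusted p 1.06e-08), 4.03-fold lower. Cdkn1b, an inhibitor of cyclin-dependent kinases, rose (log2 fold change 0.63), while Cdkn1c fell (-0.75).

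Progenitor genes fell less uniformly. Of 28 apical progenitor genes 21 fell and 1, Ddah1, rose (log2 fold change 0.61), with a median of -0.62. Nes, an intermediate filament of neural progenitors, was at 1075, 876, 1030.4 and 989.7 CPM at E12.5 and 523, 449, 449 and 507 CPM at E15.5 (log2 fold change -1.04, SE 0.103, adjusted p 7.2e-07). Sox2, the factor that maintains neural progenitors, went from 485, 461, 446 and 439 CPM to 294, 329, 295 and 256 CPM. In both, picked for a small adjusted p, every E15.5 library lay below every E12.5 library, as in 21.0% of all genes. The list of genes known to decline as progenitors age had 12 of 14 members lower and none higher (1 higher without E12.5 replicate 1), with a median of -1.65. Hmga2, a chromatin protein of young stem cells, was at 215, 387, 366 and 341 CPM at E12.5 and 18.9, 15.9, 11.9 and 14.9 CPM at E15.5 (log2 fold change -4.40, SE 0.252, adjusted p 6.13e-09), 21.2-fold lower. Crabp2, a carrier of retinoic acid, was at 54.3, 98.4, 79.5 and 96.3 CPM and 5.63, 6.59, 4.74 and 2.81 CPM (log2 fold change -4.02, SE 0.31, adjusted p 7.31e-08). Igf2bp1, an RNA-binding protein of embryonic cells, was at 193, 197, 212 and 231 CPM and 76.7, 73.3, 73.7 and 75.0 CPM, the tightest of the 3 within an age. Lin28b, which blocks the maturation of let-7 miRNAs, fell from 37.3, 20.1, 26.0 and 38.3 CPM to 6.66, 8.48, 7.31 and 5.82 CPM.

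Late radial glia genes moved mostly the other way, with 16 of 26 higher, 5 lower and a median of 0.57. Nfix and Nfib belong to the nuclear factor I family, which acts in the late phase of radial glia. Nfib also stands on the list of deep-layer neurons below, and Ptn, another member, on that of upper-layer neurons. Nfix was at 45.6, 61.4, 58.7 and 27.1 CPM at E12.5 and 334, 271, 322 and 472 CPM at E15.5 (log2 fold change 2.86, SE 0.252, adjusted p 2.58e-07). Nfib was at 334, 452, 309 and 214 CPM and 1637, 1246, 1397 and 2167 CPM (log2 fold change 2.30, SE 0.225, adjusted p 7.6e-07). In both, E12.5 replicate 4 was lowest and E15.5 replicate 4 highest. Bcan, a proteoglycan of the brain's matrix, rose from 4.94, 2.84, 3.06 and 2.82 CPM to 46.6, 25.2, 33.4 and 28.1 CPM, and Mfge8, a secreted glycoprotein, from 24.7, 28.2, 29.1 and 29.4 CPM to 99.9, 93.4, 98.5 and 79.1 CPM. Gja1, the gap junction protein connexin 43, went the other way, from 58.0, 104, 95.4 and 111 CPM to 27.8, 26.5, 27.3 and 28.6 CPM. Hopx, a marker of outer radial glia, was not called (log2 fold change 0.08). Genes of the astrocyte and oligodendrocyte lineage divided evenly, 6 of 19 higher and 6 lower, against 23.8% and 22.5% of all genes. Aldh1l1, a folate enzyme of astrocytes, was the clearest riser, from 3.36, 0.988, 1.67 and 0.652 CPM to 35.7, 32.8, 33.0 and 21.6 CPM (log2 fold change 4.15).

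Intermediate progenitor genes divided too, with 8 of 20 higher and 6 lower (median 0.19), against 23.8% and 22.5% of all genes. Insm1, a zinc finger factor of these cells, was at 104, 83.4, 107 and 95.1 CPM at E12.5 and 196, 178, 199 and 191 CPM at E15.5 (log2 fold change 0.97, SE 0.0845, adjusted p 2.01e-07). Eomes, also called Tbr2 and their defining factor, rose from 154, 188, 142 and 112 CPM to 299.99, 249, 254 and 391 CPM (log2 fold change 0.9998, SE 0.172, adjusted p 0.00018). Neurog2, which commits progenitors to neurons, did not pass (log2 fold change 0.23, adjusted p 0.166) and its groups overlapped, whereas Neurog1 fell (-1.04). Of 12 neuronal bHLH factors, 5 rose and 3 fell. Neurod2 and Neurod6 act in neurons that have left the cell cycle. Neurod2 went from 86.8, 91.6, 72.2 and 42.3 CPM to 533, 425, 448 and 579 CPM, and Neurod6 from 167, 205, 119.8 and 78.1 CPM to 1121, 933, 937 and 1665 CPM (log2 fold change 3.03, SE 0.276, adjusted p 3.8e-07). As with Nfix, E12.5 replicate 4 was the lowest library in both genes.

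**Figure D4:**
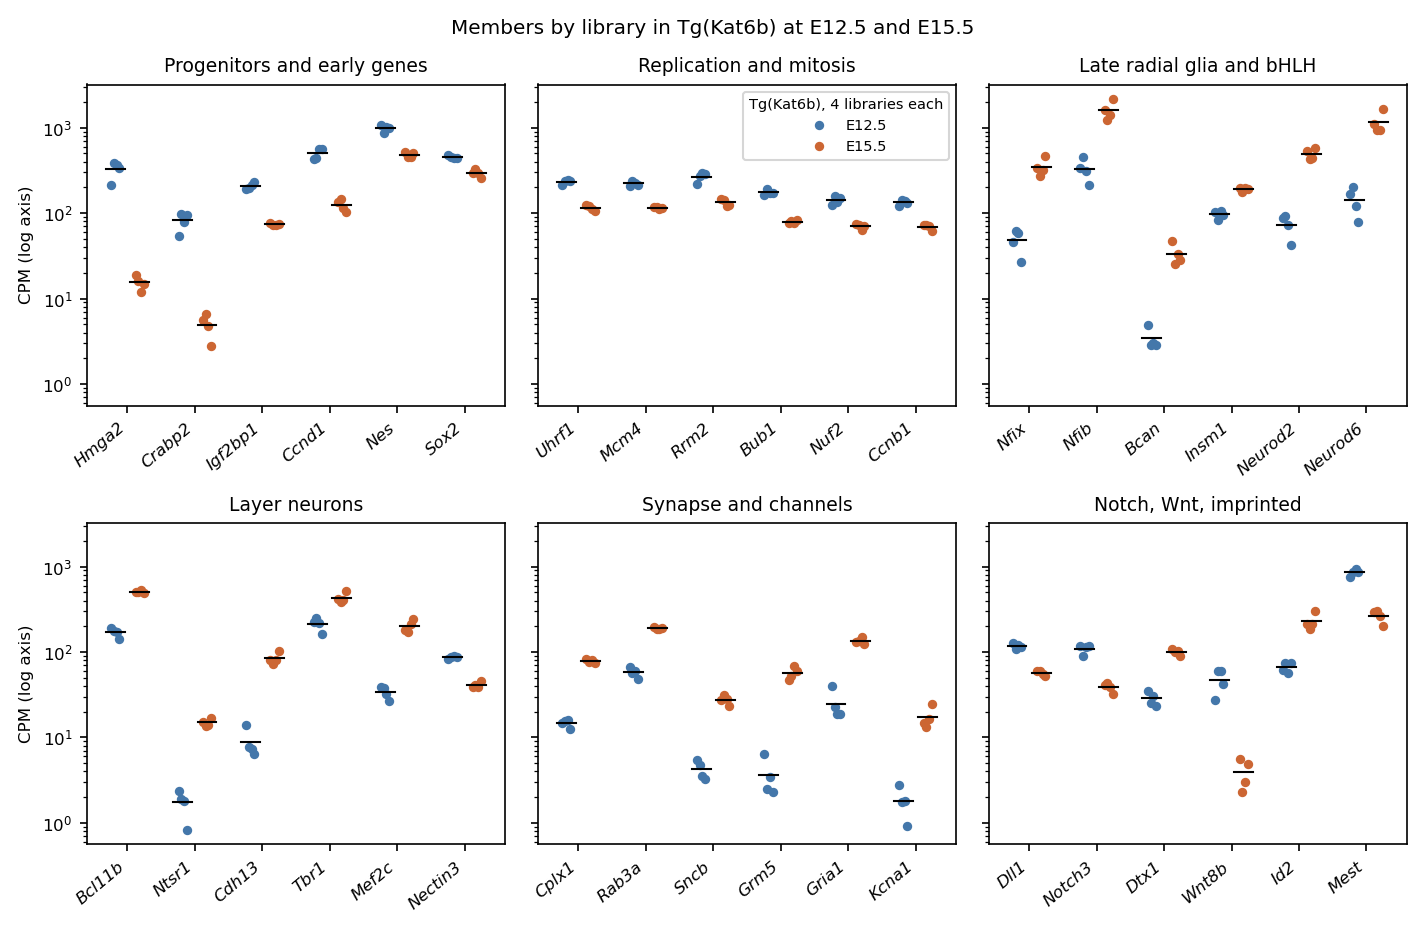
CPM (y axis, log scale) of 36 genes in the 8 transgenic libraries, in 6 panels by role, with points for libraries and a bar for the mean of 4. Early progenitor, replication and mitosis genes lie lower at E15.5, and the neuronal genes drawn lie higher, apart from Nectin3.

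Most genes of both classes of cortical layer neurons rose. Of 27 deep-layer genes 19 rose and 2 fell, with a median of 1.54, and of 27 upper-layer genes 21 rose and 1 fell (3 under upper quartile scaling), with a median of 1.10. Bcl11b, also known as Ctip2 and needed for subcerebral projection neurons, was at 191, 178, 173 and 143 CPM at E12.5 and 507, 505, 531 and 486 CPM at E15.5 (log2 fold change 1.57, SE 0.11, adjusted p 2.49e-08). Tbr1, of corticothalamic neurons, rose from 225, 248, 216 and 163 CPM to 415, 387, 402 and 517 CPM. Both, picked by their values, were already well expressed at E12.5 and higher in every E15.5 library, as were 22.1% of all genes. Ntsr1, a neurotensin receptor of layer 6, went from 2.37, 1.91, 1.81 and 0.825 CPM to 15.2, 13.6, 14.1 and 16.9 CPM, and Cdh13, a cadherin, from 14.0, 7.77, 7.29 and 6.34 CPM to 79.7, 73.0, 79.5 and 103 CPM. The deep-layer members that fell were Otx1 (log2 fold change -0.66) and Lix1 (-0.82). Tle4 (0.02) and Foxp2 (0.16), both of corticothalamic neurons, were not called. In the upper-layer list, Mef2c, a factor of maturing cortical neurons, was at 38.6, 38.0, 32.1 and 26.9 CPM at E12.5 and 183, 172, 215 and 243 CPM at E15.5 (log2 fold change 2.58, SE 0.148, adjusted p 4.85e-09), 5.98-fold higher. Nectin3, an adhesion molecule, was the upper-layer gene that fell, from 83.7, 87.9, 90.4 and 88.4 CPM to 38.9, 41.6, 38.9 and 45.6 CPM.

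Subplate genes had 5 of 12 higher and 2 lower, and Cajal-Retzius genes 5 of 15 each way. Of all genes, 23.8% rose and 22.5% fell. Reln, the secreted signal of Cajal-Retzius cells, rose from 177, 117, 96.3 and 101 CPM to 237, 238, 244 and 251 CPM. Ebf2, a factor of the same cells, fell from 24.8, 26.1, 26.2 and 22.1 CPM to 3.01, 2.54, 3.94 and 2.81 CPM. The summed level of that list was highest at E12.5 in replicate 1, at 697 CPM against 463 to 500 CPM in the other E12.5 libraries.

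Genes of neuronal structure and transmission mostly rose. In the pan-neuronal cytoskeleton 27 of 33 rose, in the synaptic vesicle and release machinery 33 of 42, among transmitter receptors 34 of 44 and among voltage-gated channels 28 of 41, against 23.8% of all genes. Their medians were 0.92, 1.19, 1.15 and 0.95. No member of the first pair of lists fell, apart from 1 synaptic gene under upper quartile scaling and when the model held only the transgenic libraries or all 32. Promoters of the members with the smallest adjusted p that hold a motif are printed for these lists, as above, with capitals for matches. They are Rtn1 (chr12:72235717-72235996, minus strand), with 1 TTTGAA and 1 CCAAT, and Cplx1 (chr5:108549998-108550277, minus), with CAGCTG.
Rtn1: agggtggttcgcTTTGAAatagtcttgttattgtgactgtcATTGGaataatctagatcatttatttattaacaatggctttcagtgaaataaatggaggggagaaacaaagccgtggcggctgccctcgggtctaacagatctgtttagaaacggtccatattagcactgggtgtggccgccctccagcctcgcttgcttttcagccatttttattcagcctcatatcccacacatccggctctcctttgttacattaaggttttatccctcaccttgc
Cplx1: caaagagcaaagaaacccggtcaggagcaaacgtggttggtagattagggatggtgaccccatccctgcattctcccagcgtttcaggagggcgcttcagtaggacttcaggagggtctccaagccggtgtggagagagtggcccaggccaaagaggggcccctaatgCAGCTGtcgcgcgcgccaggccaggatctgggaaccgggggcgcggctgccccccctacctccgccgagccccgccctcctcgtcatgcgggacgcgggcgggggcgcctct

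CAGCTG, an E-box that is its own reverse complement, was in 15.6% of all windows, 18.2% of those of genes that rose and 20.1% of those that rose by more than 1.5-fold. For genes that fell the shares were 14.8% and, past 1.5-fold, 17.3%. Among lists that mostly rose, it was in 21.1% of synaptic, 26.2% of channel and 11.5% of cytoskeleton windows, and 0 of 40 receptor windows. Among lists that mostly fell, it was in 28.6% of Notch, HES and HEY, 11.1% of replication and 9.4% of mitosis windows. CAGATG, which reads CATCTG on the other strand and is the E-box of proneural factors, was in 11.9% of all windows.

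Rtn1, a reticulon of the neuronal endoplasmic reticulum, was at 433, 316, 358 and 301 CPM at E12.5 and 824, 821, 872 and 773 CPM at E15.5 (log2 fold change 1.23, SE 0.131, adjusted p 1.5e-06). Tubb2b, a beta-tubulin, rose from 1201, 1078, 1277 and 1030.0 CPM to 2156, 2056, 2315 and 2168 CPM, and Mapt, the microtubule protein tau, from 369, 201, 249.8 and 192 CPM to 918, 922, 1084 and 963 CPM. In Rtn1 and Mapt, E12.5 replicate 1 was the highest of its age. Cplx1, complexin 1, which clamps vesicle fusion, was at 14.7, 15.6, 16.1 and 12.4 CPM and then 83.7, 75.7, 80.4 and 75.0 CPM (log2 fold change 2.42, SE 0.143, adjusted p 6.13e-09). Rab3a, a vesicle GTPase, rose from 67.4, 56.3, 60.6 and 48.6 CPM to 194, 187, 184 and 189.8 CPM, and Sncb, beta-synuclein, from 5.45, 4.68, 3.51 and 3.21 CPM to 27.4, 31.1, 28.4 and 23.6 CPM. In each of these 6 genes, picked for a small adjusted p, all E15.5 libraries lay above all E12.5 libraries, as in 22.1% of all genes. The vesicular glutamate transporter Slc17a7 rose from 20.5, 19.9, 21.3 and 11.5 CPM to 46.6, 48.7, 43.0 and 51.4 CPM, while Slc17a6, its early counterpart, was not called (log2 fold change -0.21).

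Among receptors, Grm5, a metabotropic glutamate receptor, was at 6.42, 2.52, 3.44 and 2.30 CPM at E12.5 and 47.6, 52.7, 69.1 and 59.8 CPM at E15.5 (log2 fold change 3.93, SE 0.333, adjusted p 1.76e-07), 15.3-fold higher. Gria1, an AMPA receptor subunit, rose from 39.6, 22.5, 18.7 and 18.9 CPM to 131, 134, 148 and 125 CPM, again with E12.5 replicate 1 the highest of its age. The 2 receptors that fell are nicotinic acetylcholine receptor subunits. Chrna3 fell from 11.1, 10.3, 9.76 and 9.60 CPM to 2.69, 4.00, 3.21 and 1.65 CPM, and Chrna4 had a log2 fold change of -1.75. Kcna1, a potassium channel of axons, rose from 2.75, 1.75, 1.81 and 0.912 CPM to 14.8, 13.1, 16.6 and 24.6 CPM. The channel subunits Scn4b (log2 fold change -2.76) and Cacna1g (-0.48) fell, the latter not without E12.5 replicate 4. The summed channel level was 1488 CPM in E12.5 replicate 1 and 791 to 879 CPM in the other E12.5 libraries, and 1540 to 1710 CPM at E15.5.

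Axon guidance genes had 26 of 52 higher and 8 lower (median 0.36). Cntn2, an axonal adhesion molecule, rose from 212, 139, 127 and 122 CPM to 839, 687, 781 and 994 CPM. Robo3, which steers axons at the midline, fell from 58.1, 29.2, 25.5 and 32.6 CPM to 4.52, 3.24, 2.81 and 1.26 CPM, highest in E12.5 replicate 1, the library with the most diencephalon, midbrain and hindbrain markers. Cntnap2, a contactin-associated protein, also fell (log2 fold change -0.88). Of 29 neuronal RNA-binding and splicing regulators 13 rose and 5 fell. Rbfox1, a neuronal splicing factor, had a log2 fold change of 2.77, while Rest, the repressor of neuronal genes, and Ptbp1, a splicing repressor of progenitors, fell (-0.75 and -0.58).

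Genes of the Notch and Wnt pathways, which keep cortical progenitors dividing, mostly fell. In the Notch list 18 of 27 genes fell and 3 rose, with a median of -0.45; without E12.5 replicate 1, 5 rose. Dll1, a Notch ligand, was at 128, 108, 122 and 114 CPM at E12.5 and 60.6, 59.3, 55.4 and 52.4 CPM at E15.5 (log2 fold change -1.05, SE 0.0959, adjusted p 3.37e-07). Notch3, a receptor also found on vessel-associated cells, fell from 118, 89.3, 114 and 116 CPM to 41.4, 43.0, 38.8 and 32.5 CPM, and the target Hes5 had a log2 fold change of -0.89. Dtx1, a ubiquitin ligase of the pathway, rose from 35.0, 25.4, 30.6 and 23.2 CPM to 109, 101, 103 and 89.1 CPM. The other risers were Rfng and Numbl (0.62 and 0.49). In the Wnt, hedgehog and BMP list 34 of 44 genes fell and 3 rose, with a median of -0.93. Of these, 10 also stand on the lists for hem, diencephalon or meninges, and without them 24 of 34 fell, with a median of -0.76. Wnt8b, a ligand of the cortical hem, fell from 27.6, 59.5, 59.2 and 42.2 CPM to 5.55, 2.32, 2.97 and 4.85 CPM, and the pathway target Axin2 had a log2 fold change of -0.99. Id2, an inhibitor of bHLH factors that BMP signals induce, rose from 61.7, 74.6, 56.1 and 74.9 CPM to 211, 187, 215 and 303 CPM.

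Factors of area patterning had 15 of 30 lower and 9 higher (median -0.46), against 22.5% and 23.8% of all genes. Fgf8 and Fgf17, ligands of the rostral patterning centre, fell (log2 fold changes -4.10 and -3.49), and Lmo3 and Lmo4, which mark cortical areas, rose (1.30 and 0.90). In the SOX family 8 of 18 fell and 5 rose, the risers including Sox11 (0.84) and Sox4 (0.87), both active in young neurons. Imprinted growth genes had 11 of 21 lower and 1, Usp29, higher (0.70), with a median of -0.75 that was -0.50 without E12.5 replicate 1. Mest, a paternally expressed gene, fell from 752, 857, 939 and 870.5 CPM to 290.3, 298, 261 and 202 CPM (log2 fold change -1.70, SE 0.12, adjusted p 2.61e-08). Igf2, the imprinted insulin-like growth factor, was at 78.8, 181, 151 and 411 CPM at E12.5 and 47.9, 47.1, 51.7 and 36.4 CPM at E15.5. Its highest library was E12.5 replicate 4, which also had the highest meninges and erythroid sums.

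Lists of chromatin genes differed from each other. Among 17 MYST acetyltransferases and partners 2 rose and 3 fell, against 23.8% and 22.5% of all genes, with a median of 0.07. Leaving out E12.5 replicate 3 or 4, or E15.5 replicate 1, 2 or 4, left 1 that rose. Kat6a, the closest paralog of Kat6b, was not called (log2 fold change -0.13, adjusted p 0.452). Neither was Brpf1, the scaffold of the same complex (0.02), nor Brd1 (0.20, adjusted p 0.0508), another scaffold, which passed in 5 of 18 alternative settings, among them without E12.5 replicate 1 (adjusted p 0.0213) and without E15.5 replicate 3 (adjusted p 0.0447). The members that fell were Ing5, which reads methylated histone tails (-0.59), Msl3 (-0.34) and Brpf3 (-0.27), whose call was lost in 9 of 18 alternative settings. Msl2 (0.25) and Meaf6 (0.21) rose, both losing the call in some settings, Msl2 without E15.5 replicate 4. In the BAF remodelling complex 11 of 28 rose and 2 fell, and 4 fell without E15.5 replicate 4. Of the risers, 7 passed the test for more than 1.5-fold, against 8.33% of all genes. Some of the subunits known to be exchanged between progenitors and neurons moved in opposite directions. Actl6a and Dpf2, of the progenitor form, were the 2 that fell (-0.57 and -0.43). No other subunit of that form was called lower in the main model. Actl6b and Dpf1, of the neuronal form, rose (1.27 and 0.81). Smarca2, one of the alternative ATPases, rose from 127, 119.8, 109 and 115 CPM to 293, 268, 284 and 359.9 CPM. Polycomb and DNA methylation genes had 11 of 29 lower and 7 higher. Ezh2, the H3K27 methyltransferase of dividing cells, fell from 448, 487, 442 and 454 CPM to 343, 330.2, 335 and 388 CPM, while its paralog Ezh1 rose (0.67).

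Lists of general cell function and of other cell types were mixed. Their counts are to be set beside the 23.8% of all genes that rose and the 22.5% that fell. Cytosolic ribosomal proteins had 8 of 69 lower and none higher, a count that was 17 without E12.5 replicate 1, 3 without E12.5 replicate 2, 4 without E15.5 replicate 2, and 5 without E12.5 replicate 4 or E15.5 replicate 3. Without E12.5 replicate 2, 2 ribosomal genes rose, and without E12.5 replicate 1, E15.5 replicate 3 or E15.5 replicate 4, 1 rose. Many of these genes have near-identical copies, which makes their counts uncertain. Cholesterol and fatty acid synthesis had 10 of 29 lower and 1 higher, or 2 higher without E15.5 replicate 2. Scd1, a fatty acid desaturase, had a log2 fold change of -1.02, and Fdft1, the squalene synthase, was the riser (0.54). Glycolysis and hypoxia genes had 8 of 29 higher and 5 lower, with 2 lower without E12.5 replicate 2 and 3 without E15.5 replicate 3 or replicate 4. Ndrg1 and Eno2, the latter a neuronal enolase, rose (4.01 and 1.55). Immediate early genes, which mark recent stimulation, had 6 of 19 higher and 1 lower, Btg2 (-0.51), and 2 lower without E12.5 replicate 1 or E15.5 replicate 1. Microglia genes had 7 of 21 higher and 2 lower. The homeostatic marker P2ry12 rose (1.55), and Pf4 and Mrc1, of macrophages at the brain's borders, fell (-5.50 and -2.97). Endothelial and pericyte genes had 7 of 27 higher and 10 lower. Slco1c1, a transporter of the blood-brain barrier, rose (2.20), and Cdh5, the endothelial cadherin, fell (-1.19). Skeletal muscle genes had 4 of 10 higher and 3 lower, with sums of 21.8 to 35.4 CPM at E12.5 and 47.7 to 55.2 CPM at E15.5, so every E15.5 library lay above every E12.5 one. Of the X inactivation and Y chromosome genes only 4, all on the Y chromosome (Kdm5d, Uty, Eif2s3y and Ddx3y), could be tested, and none was called. Kdm5d and Uty fell when the model held only the transgenic libraries (adjusted p 0.0105 and 0.0237). Xist, of X inactivation, had 1 to 38 counts per transgenic library, and Ddx3y 665 to 3618. The sum of this list was 819 CPM in wild-type E15.5 replicate 3 and at most 342 CPM in any other library of this background.

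The 30 genes with the largest changes were taken from those whose groups did not overlap and whose higher group averaged at least 5 CPM. Sla, an adaptor protein, was at 1.88, 1.66, 2.19 and 1.48 CPM at E12.5 and 87.3, 54.7, 96.7 and 117 CPM at E15.5, 48.8-fold higher. Hs3st2, a heparan sulfate sulfotransferase, went from 0.153, 0.127, 0.139 and 0.13 CPM to 6.18, 7.94, 9.08 and 6.31 CPM. Dync1i1, a dynein chain of neurons, rose from 3.59, 3.35, 2.67 and 2.87 CPM to 66.0, 46.7, 71.9 and 97.4 CPM. Groups that lie apart were a condition of this choice, so their separation is no further result. Other large risers were Gda (log2 fold change 5.12), Rgs6 (4.69), Nos1 (4.58), Mal2 (4.36), Drd1 (4.19), Trnp1 (4.19) and Rasgrf1 (4.16). AA388235 led the risers, but on 3 counts in all at E12.5 and with 1 E15.5 library, replicate 3, at 0.0803 CPM against 14.1 to 17.6 CPM in the others. Its count ratio of 473 has a counting interval of 161 to 2298. Among the largest fallers were many genes of the lists for tissues next to the cortex. Col1a2, a collagen chain, was at 28.0, 67.0, 67.0 and 255 CPM at E12.5 and 2.38, 2.32, 1.12 and 1.46 CPM at E15.5, and Lum, Ttr, Msx2, Twist1, Hbb-bh1, Hba-x and Hbb-y stood beside it. C130021I20Rik was at 8.28, 1.40, 1.74 and 15.6 CPM at E12.5 and at 0 in all E15.5 libraries, at least 114-fold lower against a floor of 3 counts over the group.

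Wild-type embryos of the same cross were compared in the same model. No gene passed the test of whether the change with age differed between transgenic and wild-type embryos. In edgeR 0 of 15556 genes were called and 628 (4.04%) had an unadjusted p below 0.05, voom in limma called 0, and DESeq2 called 1, Cand2. The 95% interval of that difference had a median width of 0.443 on the log2 scale to either side, which is 1.36-fold. Of the 7207 transgenic calls, 85.75% were also called in wild type in the same direction, which is 79.25% of the 7798 wild-type calls (50.1% of genes), and none in the opposite one. Side by side, the medians of some of the 40 lists were as follows. Replication was at -0.85 in transgenic and -0.95 in wild type, and mitosis at -0.85 and -0.99. Deep-layer genes were at 1.54 and 1.33, upper-layer genes at 1.10 and 1.06, and synaptic genes at 1.19 and 1.24. Other lists lay further apart, such as subplate genes at 0.49 and 0.003, and endothelial and pericyte genes at -0.15 and -0.59. Cytosolic ribosomal proteins were at -0.20 and 0.09. Cand2, a cullin-binding protein, was at 89.3, 85.1, 90.3 and 86.8 CPM at E12.5 and 67.4, 68.7, 64.8 and 65.5 CPM at E15.5. It had a log2 fold change of -0.40 in transgenic and -0.87 in wild-type embryos, a difference of 0.47. A730046J19Rik had 4.74 against 1.70, AW209491 -0.01 against 0.62, Gcn1l1 0.21 against -0.41 and Rpl34-ps2 -1.21 against 0.58. These 5 had the smallest p of the difference and failed the edgeR correction, each with an adjusted p of 0.999984.

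**Figure D5:**
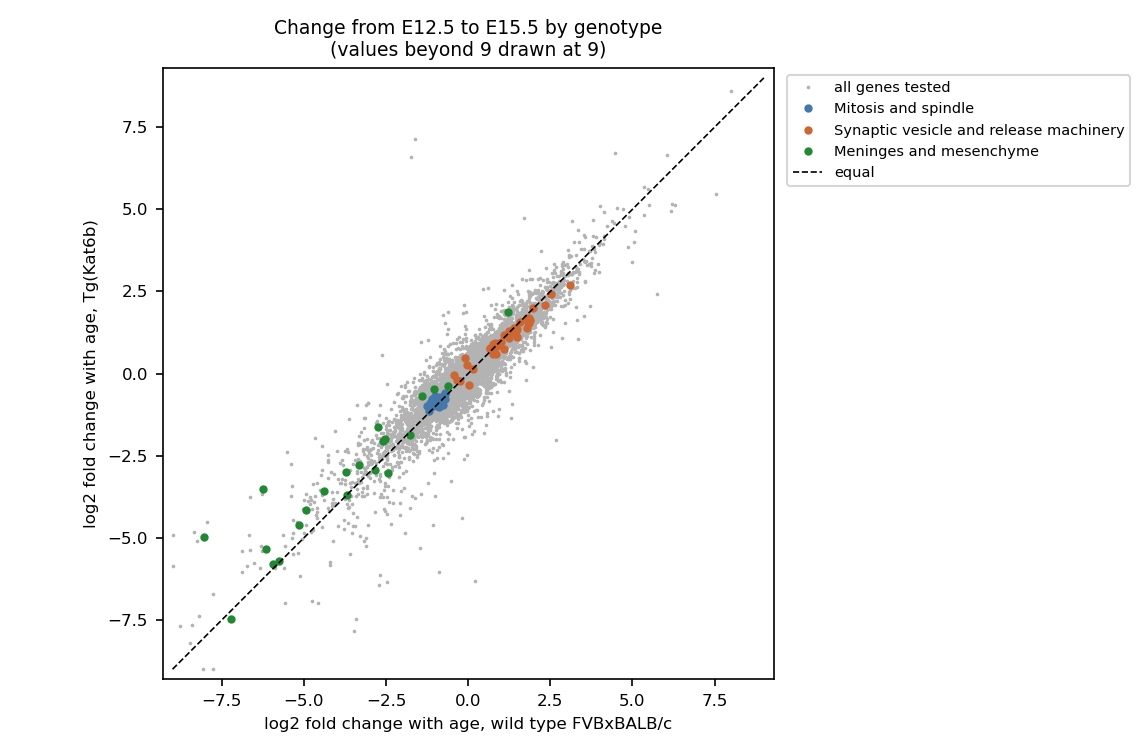
Log2 fold change from E12.5 to E15.5 of each gene tested in transgenic embryos (y axis) against wild-type embryos of the same cross (x axis), with the mitosis, synaptic and meninges lists in colour and values beyond 9 drawn at 9. Mitosis genes lie below 0 and most synaptic genes above 0 in both genotypes.

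Some of the members above had an unadjusted p below 0.05 for that difference. Otx1 had a log2 fold change of -0.66 in transgenic against -1.33 in wild-type embryos (unadjusted p of the difference 0.00103), Igf2bp1 -1.48 against -1.85 (p 0.00802), Uhrf1 -1.02 against -1.38 (p 0.01) and Nes -1.04 against -1.38 (p 0.0313). Cntnap2 had -0.88 against -0.39 (p 0.0063). Ttr had -6.32 against 0.20 (p 0.0138), and E15.5 wild-type replicate 3 was at 428 CPM. None of these passed the Benjamini-Hochberg correction of edgeR, and they were picked after their values were seen.

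C57BL/6 wild-type embryos share no library with the transgenic comparison. There 9157 of 16118 genes (56.8%) changed between the same ages, and 8579 without the wild-type library with the other header. The knockout library with such a header stayed in that model. Of the transgenic calls that could be tested there, 88.4% were called in the same direction, which is 70.6% of the C57BL/6 calls, and 2 in the opposite one. Medians in C57BL/6 were -1.12 for replication, -1.21 for mitosis, 1.26 for deep-layer, 1.03 for upper-layer and 1.497 for synaptic genes. Mef2c had a log2 fold change of 2.58 in transgenic and 2.52 in C57BL/6 embryos, and Hmga2 -4.40 and -4.91. Background and sequencing batch cannot be told apart in this comparison.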

How the data were processed

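RNA was measured by paired-end sequencing (NextSeq500, 66 bp) of libraries made with a TruSeq RNA v2 kit, which does not mark strand, from total RNA purified on RNeasy columns with DNase, per the labels' protocols. The authors deposited raw read counts per gene, 1 file per library, with no normalization. Base calls were made with bcl2fastq and reads counted with featureCounts on mm10, per the submitters' processing notes; the aligner, and any annotation, version or strand setting, is not given in the sources used here. Reads of overlapping or antisense genes, such as C130021I20Rik, therefore cannot be told apart. Of 27179 rows, 848 named no gene (0.3089 to 0.4337% of the counts) and were left out.

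Counts of the 16 FVBxBALB/c libraries entered 1 model in edgeR 4.0.16 (R 4.3.3), with filterByExpr (minimum count 10, minimum total 15), TMM scaling and a mean for each of 4 groups. Robust quasi-likelihood F tests gave 2-sided p-values, adjusted by Benjamini-Hochberg over all 15556 genes, and glmTreat tested changes of more than 1.5-fold. The biological coefficient of variation was 0.188. All C57BL/6 libraries, wild-type and Kat6b knockout, had a model of their own, so the knockouts shared in its filter, scaling and estimate of spread. Knockout replicate 3 at E15.5 had 19.1% of its counts in ribosomal RNA. The difference in age effect is the interaction contrast. Replicate files differed by more than counting noise. The scripts were tested on simulated data. DESeq2 1.42.0 and voom in limma 3.58.1 were alternatives.

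The members and the 40 gene lists were chosen with earlier results of these data known, so lists are described by counts and medians, with no test. Of 1110 list entries 1107 matched a symbol, and the other 3 (Hbb-b2, Hbb-bt and Ahsp) were erythroid. The markers Diablo, Tbr2 and Diap3 had been dropped from the lists beforehand. Named genes are Kat6b and Dupd1, the 15 genes at either end of the fold change among called genes with groups apart and at least 5 CPM in the higher group, up to 6 members per list with the smallest adjusted p, up to 3 called against their list's majority, and the 5 smallest p of the difference. Uncalled members may be named. Actl6b, Eomes, Fgf8, Fgf17, Hes5, Hmmr, Igf2, Lin28b, Mki67, Rest, Slc17a7 and Tbr1 fall outside that rule and were chosen after their values were seen. Promoter windows came from RefSeq (GRCm38.p6) and matched 11824 of the genes tested. Some genes are not reported here.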

Additional observations from a re-analysis of the deposited data

Results flagged for a closer look

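Within groups of 4 libraries, 144 sets of values (named genes and list sums) were searched for a library far from the other 3, and 13 were found, while chance gives about 1 in 20. E12.5 replicate 4 stood apart in genes of connective tissue. Gjb2 was at 27.1 CPM there against 0.590 to 1.56 CPM, Col8a2 at 44.4 against 1.12 to 6.98 CPM, Hapln1 at 28.8 against 2.24 to 5.64 CPM, and Twist1 at 47.8 against 0.891 to 3.73 CPM. This library also had the highest meninges sum, 1459 CPM. E12.5 replicate 1 stood apart in the sums of voltage-gated channels (1488 against 791 to 879 CPM), Cajal-Retzius genes (697 against 463 to 500 CPM) and skeletal muscle genes (35.4 against 21.8 to 22.8 CPM). It was also the highest E12.5 library in the sums of the cytoskeleton, synaptic and receptor lists and had the highest diencephalon, midbrain and hindbrain sum, 468 CPM.

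E15.5 replicate 4 stood apart in Nos1, at 41.8 CPM against 21.8 to 25.2 CPM. It was also high in the sums of area patterning factors (3866 against 3301 to 3307 CPM), of Wnt, hedgehog and BMP genes (2560 against 2215 to 2266 CPM), of hem and choroid plexus markers (127 against 101 to 103 CPM) and of MYST acetyltransferases and partners (2397 against 2085 to 2136 CPM). The ventral telencephalon sum was lowest in the same library, at 1035 CPM. Gjb2 was at 0.108 CPM in E15.5 replicate 2 and at 0 in the other 3 libraries of that age.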

How the results depend on the processing

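Across scaling (DESeq2 size factors, upper quartile), filters on low counts, the libraries in the model, thinning to the lowest total, DESeq2 and voom, the count of transgenic genes changed with age ran from 6717 (voom) to 8027 (all 32 libraries). Leaving out 1 library gave 6259 to 7450. The count past 1.5-fold ran from 1922 to 2643 with 1 library left out, and a minimum fold of 2 gave 859. Wild-type counts ran from 7030 to 7860 (FVBxBALB/c) and 7851 to 8868 (C57BL/6) with 1 left out. The difference between genotypes had 0 calls with any library left out (420 to 1172 genes at an unadjusted p below 0.05) and 1 in DESeq2. Kat6b had log2 fold changes of 0.18 to 0.32 with 1 library left out (adjusted p 0.068 to 0.264) and 0.27 with only the transgenic libraries (adjusted p 0.0471). Upper quartile scaling moved the share of calls that rose from 51.4 to 45.0%, and the median of all genes from -0.029 to -0.086. Replicate numbers did not pair the libraries (correlations of same-numbered deviations -0.062 to 0.088); with the replicate block 7128 genes changed, 6939 of them shared, 2370 passed 1.5-fold, the difference had 0 calls and Kat6b an adjusted p of 0.121. Of 280 genes followed over 18 alternatives each, 25 lost a call in at least 1 and 0 changed sign. With voom 14 calls were lost, including AA388235 (adjusted p 0.0919), Ttr (0.110) and Twist1 (0.238). The medians of the skeletal muscle and astrocyte lists changed sign with the filter (to 0.789 at 1 CPM and to 0.113 without a filter). The lower depth at E15.5 limits genes of few counts.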

Other observations

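The gene with the largest rise, AA388235 (chr17:33981492-33985358, GRCm38.p6), did not rise in every library. It was at 14.3, 14.1, 0.0803 and 17.6 CPM in the transgenic and 19.2, 14.8, 0.136 and 0.195 CPM in the wild-type E15.5 libraries. Rps18, a ribosomal protein gene close by (chr17:33951998-33955665), was low in the same libraries, at 34.9, 31.5, 7.79 and 33.1 CPM in the transgenic and 42.4, 35.4, 8.30 and 5.85 CPM in the wild-type E15.5 libraries. All E12.5 libraries were low in Rps18, with 11.5, 12.7, 12.1 and 10.8 CPM in the transgenic and 11.6, 13.9, 11.4 and 11.1 CPM in the wild-type ones. Rps18 was singled out after its values were seen.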
